A study of Mus musculus with 4 samples.

Results

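The 10 genes described here mark the cortical hem and the Cajal-Retzius cells, and they are 10 of 21938 protein-coding genes in the annotation. They were chosen by name for the cells they mark, with earlier results of these data known: Lmx1a, Gdf7 and Msx1 for the hem, Reln, Trp73, Lhx1, Lhx5 and Calb2 for Cajal-Retzius cells, and the chemokine Cxcl12 with its receptor Cxcr4. Chromatin accessibility was measured by ATAC-seq, in which Tn5 transposase inserts adapters into open chromatin, with 50000 nuclei of hippocampal tissue per library at postnatal day 0 (P0). There were 2 libraries labelled cKO, genotype Kdm2bEmx1-delta-CxxC, and 2 labelled Ctrl, for which the genotype field allows Kdm2bfl/+ or Kdm2bfl/fl without saying which library carried which. The names of the peaks in Ctrl 1 and Ctrl 2, as the lists are called here, carry different tags (Kf-+ and Kf-f) that the labels do not explain and that were not used, so a difference in genotype within Ctrl and a difference between the libraries cannot be told apart. Emx1-Cre acts in the dorsal telencephalon and deletes the part of Kdm2b that encodes the CxxC zinc finger, the domain with which KDM2B binds CpG islands (CGIs). Interneurons, microglia and vessel cells in the dissected tissue come from outside the Emx1 lineage and were not sorted away. The source field names neural progenitor cells, whereas the titles and the growth protocol name hippocampus, and the tissue is called hippocampus here. No label says that the libraries of a group came from separate animals, so the spread between them may be technical. In such bulk tissue, fewer cells of a type and less open chromatin per cell cannot be told apart.

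The cortical hem lies at the edge of the medial pallium, next to the hippocampal primordium, and is a source of WNT and BMP signals. It is also a main source of Cajal-Retzius cells, early-born neurons that spread over the cortical and hippocampal surface and secrete reelin, which guides the layering of later neurons. Cajal-Retzius cells carry the receptor CXCR4, and CXCL12 from the overlying meninges holds them near the surface.

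Each library gave its own list of peaks, and the lists are called Ctrl 1, Ctrl 2, cKO 1 and cKO 2 after the group and the replicate number in the titles. They differed in length before any gene was considered. Ctrl 1 held 46389 peaks, Ctrl 2 held 7037, cKO 1 held 21404 and cKO 2 held 44535. The mean depth of the genome, recovered from the lists, was between 1.62 and 3.46 fragments, highest in Ctrl 2. Ctrl 2 stood apart, since 60.6% of its peaks lay mostly in repeat-masked sequence, against 5.37 to 14.7% in the other lists. The group differences in promoter-peak counts, mean percentile, Cxcr4 percentile and locus peaks are given below with and without it. Other comparisons were not all repeated without Ctrl 2, and some leave it out. The weakest summits called had 7 to 12 fragments, or 3.46 to 4.43 times the mean depth of their library. A promoter without a peak was therefore not detectable as open at this threshold, and was not shown to be closed.

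All 10 genes have a CGI at a promoter. The promoters printed first are those of the 5 genes that had a promoter peak in at least 1 list and whose RefSeq promoter overlaps no annotated exon. They are the 250 bases before the start site in RefSeq (GRCm38.p6), 5′ to 3′ on the strand of the gene, with each CpG in capitals. RefSeq promoters were matched for 8 of the 10 genes, and Lhx5 and Calb2 were not matched.
Cxcr4, chr1:128592300-128592549, minus strand: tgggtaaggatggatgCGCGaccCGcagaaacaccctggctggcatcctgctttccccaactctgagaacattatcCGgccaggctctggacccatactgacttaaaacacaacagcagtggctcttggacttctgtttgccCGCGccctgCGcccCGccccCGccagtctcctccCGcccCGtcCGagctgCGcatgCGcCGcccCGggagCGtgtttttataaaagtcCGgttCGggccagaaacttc
Gdf7, chr12:8301955-8302204, minus strand: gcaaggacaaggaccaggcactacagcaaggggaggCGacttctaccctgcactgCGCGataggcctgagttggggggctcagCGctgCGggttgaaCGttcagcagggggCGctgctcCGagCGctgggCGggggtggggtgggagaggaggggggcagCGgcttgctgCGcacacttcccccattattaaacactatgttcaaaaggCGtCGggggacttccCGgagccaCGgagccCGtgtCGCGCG
Msx1, chr5:37824586-37824835, minus strand: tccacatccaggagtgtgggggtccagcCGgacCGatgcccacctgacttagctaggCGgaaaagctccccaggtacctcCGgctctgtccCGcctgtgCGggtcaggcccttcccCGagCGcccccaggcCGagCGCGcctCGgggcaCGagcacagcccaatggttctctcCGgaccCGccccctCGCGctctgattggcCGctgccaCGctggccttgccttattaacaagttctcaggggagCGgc
Reln, chr5:22344706-22344955, minus strand: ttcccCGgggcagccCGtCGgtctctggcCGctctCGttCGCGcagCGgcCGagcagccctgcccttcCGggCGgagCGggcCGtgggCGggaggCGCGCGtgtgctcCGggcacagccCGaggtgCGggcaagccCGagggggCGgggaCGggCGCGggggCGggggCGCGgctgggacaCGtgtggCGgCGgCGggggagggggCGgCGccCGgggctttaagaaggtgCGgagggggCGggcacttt
Cxcl12, chr6:117168285-117168534, plus strand: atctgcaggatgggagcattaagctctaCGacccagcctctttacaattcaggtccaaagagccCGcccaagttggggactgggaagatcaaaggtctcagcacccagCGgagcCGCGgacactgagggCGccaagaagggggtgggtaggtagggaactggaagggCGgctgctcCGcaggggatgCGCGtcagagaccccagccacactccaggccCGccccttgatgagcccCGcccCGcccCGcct
These 250 bases held 37 CpGs at Reln, 20 at Gdf7, 20 at Msx1, 19 at Cxcr4 and 14 at Cxcl12, against a median of 6 over 32851 RefSeq promoters. The GC box GGGCGG, searched on both strands, was found 6 times at Reln, 5 times at Cxcl12, 3 times at Cxcr4 and 1 time each at Gdf7 and Msx1, and 32.7% of all RefSeq promoters held it at least once. The GC content was 80% at Reln, 68.0% at Msx1, 66% at Gdf7, 64.4% at Cxcl12 and 61.2% at Cxcr4. The promoters not printed held 26 CpGs at Lhx1, 9 at Lmx1a and 31 and 6 at 2 start sites of Trp73. GGGCGG was found 2 times at Lmx1a, 1 time at the Trp73 start with 6 CpGs, and not at the other Trp73 start or at Lhx1.

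Open chromatin was also called away from promoters. In the gene body and 50 kb either side, the strongest of all peaks lay away from every annotated promoter at 6 of 10 genes in Ctrl 1, 5 of 8 with a peak in cKO 1, 5 of 10 in cKO 2 and 0 of 1 in Ctrl 2. Over protein-coding genes with any peak in the same reach the share was 24.1% in Ctrl 1, 24.8% in cKO 1 and 26.6% in cKO 2 (48.1% in Ctrl 2), and the member count, made after the peaks had been seen, was not tested. The strongest peak lay at the promoter of another gene at 3 members in each of Ctrl 1, cKO 1 and cKO 2. No share over all genes is given for this count, and nothing about the members is read from it. Stretches of 200 bases around the summits of 4 regions away from promoters are printed as examples, on the plus strand of GRCm38, with the motifs TAATTA (bound by LIM-homeodomain factors), CTTTGA (TCF/LEF), CAGCTG and CAGATG (E-boxes) and GGGCGG in capitals on either strand.
Reln intron, chr5:22093413-22093612: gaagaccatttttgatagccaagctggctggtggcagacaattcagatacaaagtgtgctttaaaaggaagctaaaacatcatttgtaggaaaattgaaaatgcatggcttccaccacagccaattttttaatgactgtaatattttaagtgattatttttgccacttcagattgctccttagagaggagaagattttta
Lmx1a intron, chr1:167736847-167737046: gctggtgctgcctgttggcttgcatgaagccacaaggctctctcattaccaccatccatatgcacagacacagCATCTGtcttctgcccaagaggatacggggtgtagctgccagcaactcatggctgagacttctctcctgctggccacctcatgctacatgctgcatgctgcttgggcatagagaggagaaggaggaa
Cxcr4 downstream, chr1:128561381-128561580: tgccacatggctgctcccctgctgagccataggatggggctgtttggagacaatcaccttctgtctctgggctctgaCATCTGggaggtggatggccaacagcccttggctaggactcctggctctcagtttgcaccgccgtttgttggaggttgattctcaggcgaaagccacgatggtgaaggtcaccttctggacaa
Lhx1 upstream, chr11:84549400-84549599: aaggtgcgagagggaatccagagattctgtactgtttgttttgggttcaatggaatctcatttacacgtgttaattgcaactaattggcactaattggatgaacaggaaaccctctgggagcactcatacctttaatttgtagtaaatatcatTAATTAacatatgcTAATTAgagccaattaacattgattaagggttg
The Reln window held none of the 5 motifs and 0 CpGs. The Lmx1a and Cxcr4 windows each held CAGATG 1 time, read as CATCTG on the plus strand. The Lhx1 window held TAATTA 2 times. A match is only a run of letters, and no binding was measured.

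Promoter peaks were compared first, because the CxxC domain binds CGIs and CGIs lie at promoters. A peak belonged to a gene when its summit lay within 2 kb of a start site of that gene. Of the 10 genes, 7 had a promoter peak in Ctrl 1 and 0 in Ctrl 2, while 1 had a promoter peak in cKO 1 and 5 in cKO 2. The share over all 21938 protein-coding genes was 58.0% in Ctrl 1, 8.27% in Ctrl 2, 40.3% in cKO 1 and 55.9% in cKO 2. Among the 12693 protein-coding genes with a CGI at a promoter, which the 10 genes all belong to, it was 87.1%, 13.5%, 63.3% and 84.8% in the same order. The members' shares were 70.0%, 0.0%, 10.0% and 50.0%, so that in Ctrl 1 the share lay above that of all protein-coding genes and below that of CGI genes, and no test was run on these counts.

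**Figure D1:**
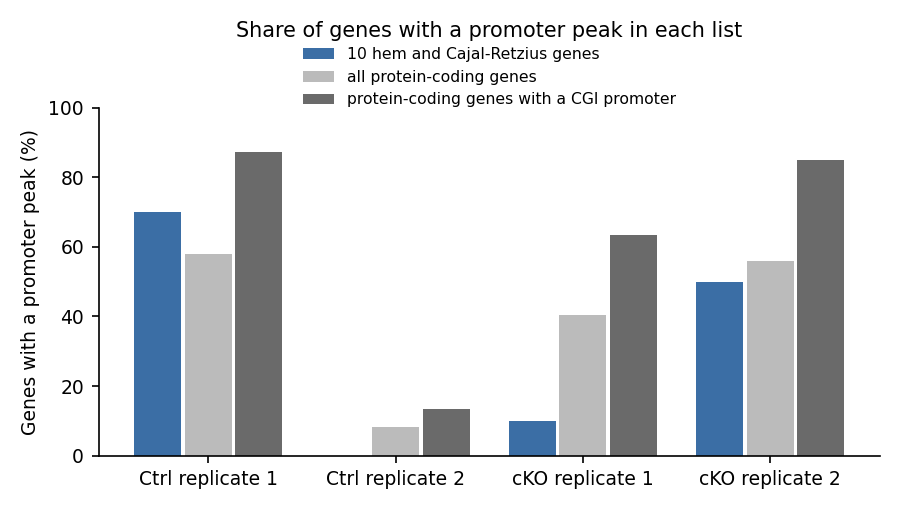
Share of genes with a promoter peak (%, vertical axis) in each of the 4 lists, for the 10 hem and Cajal-Retzius genes (blue), all protein-coding genes (light grey) and protein-coding genes with a CGI at a promoter (dark grey). The blue bars stand at 70.0%, 0.0%, 10.0% and 50.0%, and the blue bar of Ctrl 1 stands between the light and the dark grey ones.

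The mean over the groups did not separate them. The cKO libraries had 3 ± 2.83 of the 10 genes with a promoter peak and the Ctrl libraries 3.5 ± 4.95 (mean ± SD, n = 2 each), a difference of −0.5 that was smaller than either spread. Leaving out Ctrl 2 made it −4, and leaving out cKO 1 made it 1.5. Promoter peaks were ranked by their −log10 p within each list, and the promoter percentile of a gene is the share of protein-coding genes with a weaker promoter peak or none, set to 0 where the gene has no promoter peak. The mean percentile of the 10 genes was 34.7 in Ctrl 1, 0 in Ctrl 2, 6.75 in cKO 1 and 26.5 in cKO 2. Over all protein-coding genes it was 41.2, 7.93, 32.1 and 40.2. Averaged by group the percentile was 16.6 ± 13.9 for cKO and 17.3 ± 24.5 for Ctrl (n = 2 each), and the difference of −0.748 became −18.1 without Ctrl 2 and 16.6 without Ctrl 1. It was −7.87 when genes without a peak took a middle rank and −3.28 at −log10 q of at least 5.

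**Figure D2:**
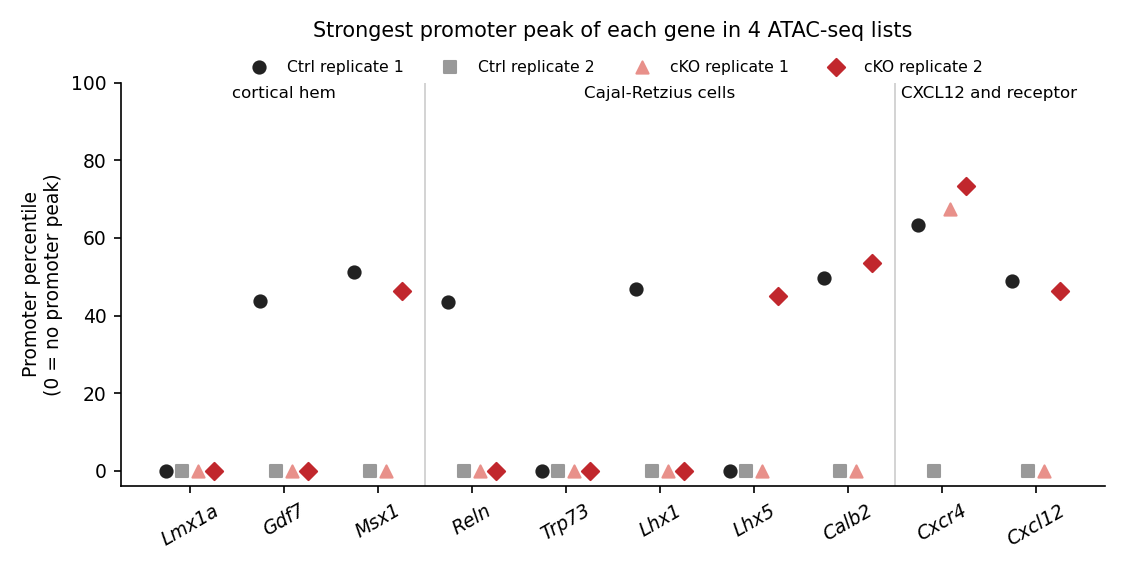
Promoter percentile (vertical axis) of each gene in the 4 lists, with genes ordered by role and 0 marking a gene with no promoter peak. Cxcr4 is the gene with points above 0 in both cKO lists, at 67.5 and 73.5, and its Ctrl points stand at 63.3 and 0.

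Among the hem genes, Lmx1a (chromosome 1, 167689237 to 167848741, plus strand) encodes a LIM-homeodomain factor that specifies the hem and the roof plate. It lacked a promoter peak in every list, although a CGI of 981 bp spans its outer start site. Gdf7 (chromosome 12, 8297918 to 8301954, minus strand) encodes a BMP ligand of the dorsal midline. Its promoter had 12 fragments at the summit in Ctrl 1, which is 7.40 times the mean depth and rank 40730 of 46389, and no peak in the other 3 lists. Msx1 (chromosome 5, 37820485 to 37824583, minus strand) encodes a homeodomain factor that responds to BMP signals. Its promoter had 16 fragments (9.86 times the mean depth) in Ctrl 1 and 11 fragments (6.09 times) in cKO 2, with summits 4 and 6 bp upstream of the start site and no peak in the other 2 lists. Where the hem promoters were called at all, their peaks thus lay in the weaker part of the list, from 55.9 to 87.8% of the way down. No hem gene had groups that did not overlap.

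Among the Cajal-Retzius genes, Reln (chromosome 5, 21884454 to 22344702, minus strand) encodes the secreted protein reelin. Its strongest promoter peak lay 564 bp upstream of the start site with 10 fragments in Ctrl 1 (6.16 times the mean depth, rank 41195 of 46389), a second one lay 110 bp downstream with 9 fragments, and the other 3 lists had none. Trp73 (chromosome 4, 154056253 to 154140208, minus strand), which encodes the p53 relative p73 that Cajal-Retzius cells need, lacked a promoter peak in every list. A peak in each of the 3 longer lists came close to its promoter, at 2.11 kb upstream in Ctrl 1, 2.24 kb in cKO 1 and 2.14 kb in cKO 2, and lies at the promoter of the neighbour Wrap73. These peaks fall just outside the 2 kb limit, and the promoter peak nearest to the limit from inside was that of Cxcl12 at 1.45 kb upstream.

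Lhx1 (chromosome 11, 84518284 to 84525535, minus strand) and Lhx5 (chromosome 5, 120431699 to 120441223, plus strand) encode LIM-homeodomain factors of Cajal-Retzius cells and of other early neurons. The Lhx1 promoter had 12 fragments (7.40 times the mean depth) in Ctrl 1 and no peak elsewhere. The Lhx5 promoter had 10 fragments (5.54 times) in cKO 2 and no peak elsewhere. Each was therefore found in 1 list, and the 2 genes in lists of different groups. Calb2 (chromosome 8, 110137502 to 110168210, minus strand) encodes the calcium-binding protein calretinin, which marks Cajal-Retzius cells and some interneurons. Its promoter had 17 fragments in Ctrl 1 and 18 in cKO 2, or 10.5 and 9.96 times the mean depth, and no peak in the other 2 lists. The Calb2 promoter thus differed little between these 2 long lists, which are 1 library of each group and do not compare the groups.

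Of the chemokine pair, Cxcl12 (chromosome 6, 117168535 to 117181367, plus strand) encodes the ligand. In Ctrl 1 it had a peak 1.45 kb upstream with 15 fragments and a second one at the start site with 14 fragments, in cKO 2 a peak at the start site with 11 fragments, and in the other 2 lists none. Cxcr4 (chromosome 1, 128588199 to 128592293, minus strand) encodes the receptor, and its promoter was the most open of the 10. It had 39 fragments at the summit in Ctrl 1, none called in Ctrl 2, 19 in cKO 1 and 49 in cKO 2, at 162 to 300 bp upstream of the start site. Relative to the mean depth of each library this was 24.0, 9.16 and 27.1 times in the lists that held it. The rank was 13040 of 46389 in Ctrl 1, 13912 of 21404 in cKO 1 and 8632 of 44535 in cKO 2.

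Cxcr4 was the gene of the 10 whose promoter percentile lay higher in both cKO libraries than in both Ctrl libraries, at 67.5 and 73.5 against 63.3 and 0. The difference of the group means was 38.8, and it was 7.17 without Ctrl 2 and 70.5 without Ctrl 1. The exact permutation test, two-sided over the 6 ways to split 4 libraries, gave p = 0.333, the smallest p that 2 libraries per group allow. Benjamini-Hochberg adjustment over the 13196 protein-coding genes that had a promoter peak somewhere gave 1 for Cxcr4 and for the other 7 members tested, each with an exact permutation p of 1. By scaled depth the Cxcr4 groups overlapped, since 9.16 in cKO 1 lay below 24.0 in Ctrl 1. Over all 13196 genes tested, 20.5% lay higher in both cKO libraries and 2.80% lay lower in both, so that 1 of 8 members higher and 0 lower is not a result about these genes. A percentile also depends on the length of a list, since the weakest promoter peak stood at 42.0 in Ctrl 1, 91.7 in Ctrl 2, 59.7 in cKO 1 and 44.1 in cKO 2. Among all peaks of its own list the Cxcr4 promoter peak stood 28.1% of the way down in Ctrl 1, 65.0% in cKO 1 and 19.4% in cKO 2, so that in cKO 1 it was higher by percentile and lower by rank within the list. Without Ctrl 2, Cxcr4 lay higher by percentile in both cKO libraries, and 5 members (Gdf7, Msx1, Reln, Lhx1 and Cxcl12) lay lower in both than in Ctrl 1. In that comparison 23.8% of 13176 genes lay higher and 36.6% lay lower.

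The peaks called at these promoters were weak beside those of other genes. In Ctrl 1 each of the 7 members with a promoter peak ranked below the median gene with a promoter peak, and the same held for the 1 member in cKO 1 and for 4 of 5 in cKO 2. The exception was Cxcr4, at percentile 73.5 against a median of 72.1. The median scaled depth of the members' promoter peaks was 9.25 in Ctrl 1, 9.16 in cKO 1 (Cxcr4 alone) and 6.09 in cKO 2. Over all genes with a promoter peak these medians were 23.4, 11.6 and 19.9. At most of the promoters called, the summit lay inside the CGI, and the exceptions were Cxcr4, whose CGI of 1017 bp lies inside the gene, and the upstream Cxcl12 peak.

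The wider loci, taken as each gene body and 50 kb on either side, held more. They cover 1.78 Mb in all and contained 51 peaks in Ctrl 1, 1 in Ctrl 2, 21 in cKO 1 and 51 in cKO 2. Per Mb this was 28.7, 0.563, 11.8 and 28.7 peaks, against 17.02, 2.58, 7.85 and 16.3 over the genome. The genome rate includes sequence far from genes. No rate over the loci of all protein-coding genes is given, so nothing about the members is read from this comparison. Relative to 10000 peaks of each list, the number of locus peaks was 11.0 in Ctrl 1, 1.42 in Ctrl 2, 9.81 in cKO 1 and 11.5 in cKO 2. The cKO libraries had 10.6 ± 1.16 and the Ctrl libraries 6.21 ± 6.77 (n = 2 each), and the difference of 4.42 turned to −0.363 without Ctrl 2. The groups overlapped, because Ctrl 1 lay between the 2 cKO libraries.

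**Figure D3:**
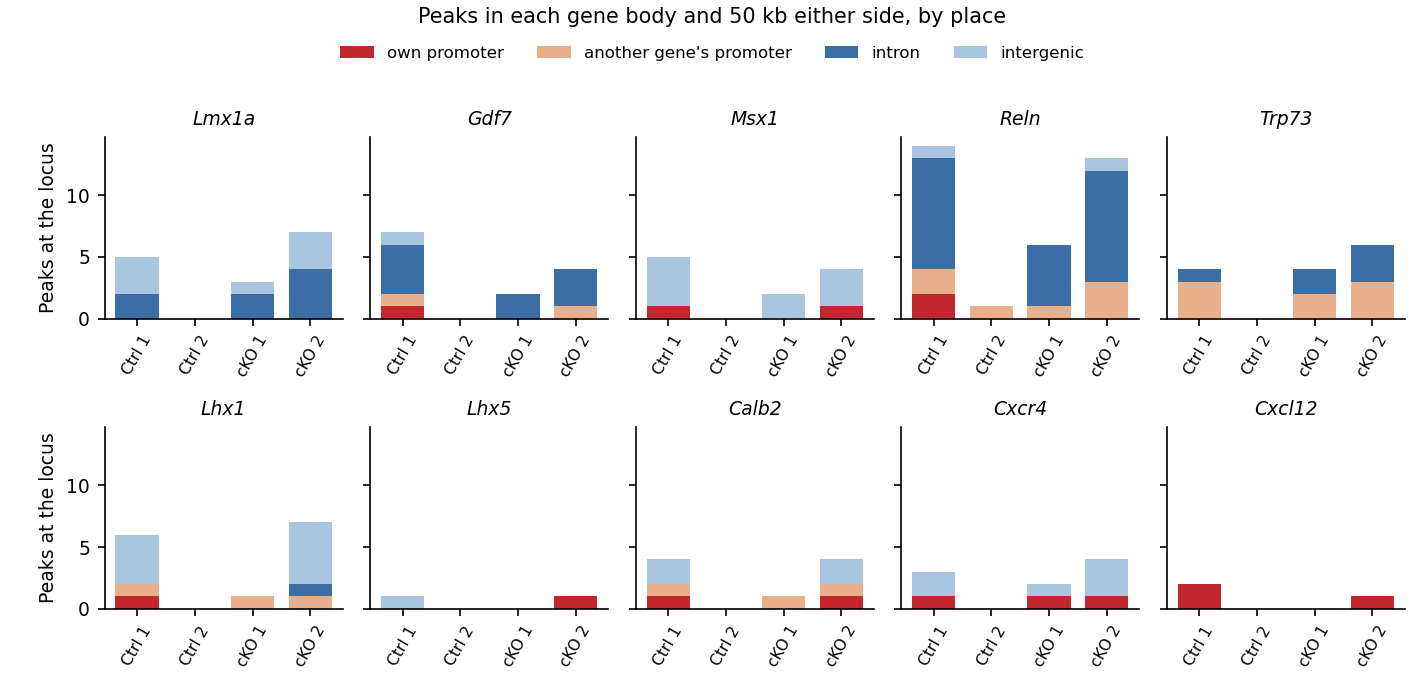
Number of peaks (vertical axis) in each gene body and 50 kb either side, per list, coloured by whether the summit lay at the gene's own promoter, at the promoter of another gene, in an intron or between genes. Reln has the most peaks, 14 in Ctrl 1 and 13 in cKO 2, most of them in introns, and the bars for Ctrl 2 are empty except for 1 peak at Reln.

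Merged over lists, the loci held 67 separate regions, of which 47 lay away from every annotated promoter. By list this was 66.7% of the locus peaks in Ctrl 1, 71.4% in cKO 1 and 72.5% in cKO 2, against 67.2%, 57.1% and 67.1% of all peaks. Ctrl 1 and both cKO lists shared 20 of the 67 (29.9%), against 25.9% of 58652 regions over the genome. Ctrl 2 held 1 region (1.49%), against 11.9% over the genome. That region lies at the promoter of Gm10475 within the Reln locus and had 22 fragments in Ctrl 2 and 9 in cKO 2. In both cKO lists and no Ctrl list there was 1 region (1.49%), against 0.692% over the genome, and in both Ctrl lists and no cKO list there was 0. The region held by both cKO lists alone lies in an intron of Trp73, 18.1 kb into the gene, with 12 fragments in cKO 1 and 13 in cKO 2.

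**Figure D4:**
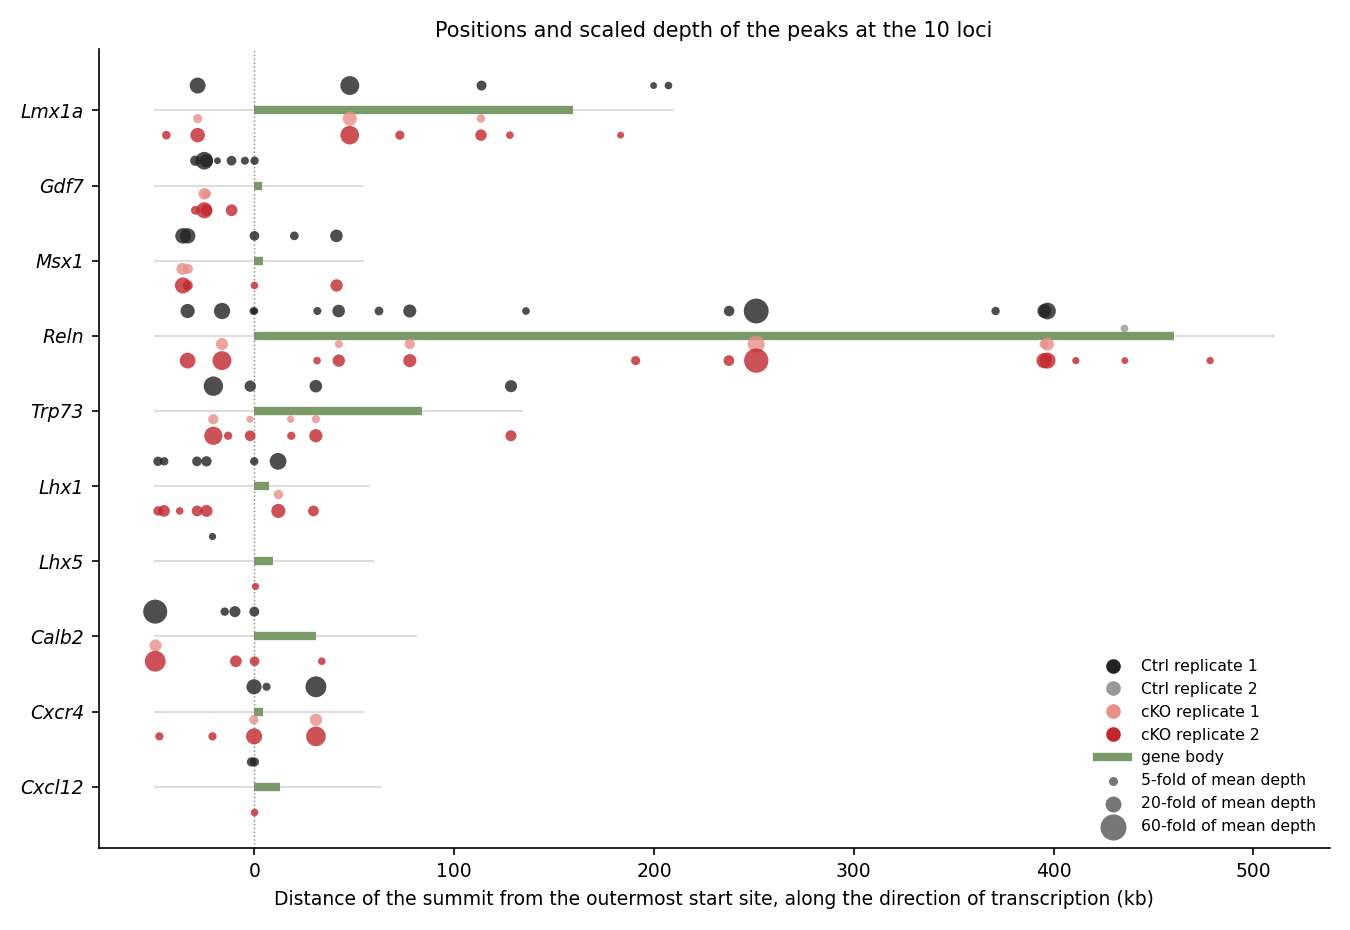
Peaks at the 10 loci by distance of the summit from the outermost start site in the direction of transcription (kb, horizontal axis), with 1 row of points per list for each gene, the gene body as a green bar and the area of a point in proportion to its scaled depth. The largest points at Reln, 251 kb into the gene, stand at 64.7, 30.4 and 62.0 times the mean depth, and most genes have small points or none at their start site.

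At Reln the strongest region was the intronic one printed above, 251 kb from the start site. It had 105 fragments in Ctrl 1, 63 in cKO 1 and 112 in cKO 2, or 64.7, 30.4 and 62.0 times the mean depth, and it was not called in Ctrl 2. It ranked within the strongest 3.48% of each of these 3 lists, and among peaks away from promoters within the strongest 0.494%, 2.01% and 0.542%. Ctrl 1 and cKO 2 were close to each other here, and cKO 1 was the lowest. Further Reln introns held 4 regions in the same 3 lists, at 42.2, 77.8, 395 and 397 kb from the start site, and their scaled depths ran from 6.75 to 29.6. Upstream of Reln, a region 33.4 kb before the start site had 34 fragments in Ctrl 1 and 47 in cKO 2, and was not called in the other lists.

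Lmx1a had no promoter peak but had 3 regions in the same 3 lists. The intronic one printed above, 47.4 kb from the nearest start site, had 61 fragments in Ctrl 1, 44 in cKO 1 and 66 in cKO 2, or 37.6, 21.2 and 36.5 times the mean depth. An intergenic region 28.4 kb upstream had 43, 18 and 40 fragments in the same order, and a weaker intronic one at 113 kb had 17, 16 and 25. The Lmx1a regions were thus found in the 3 longer lists of both groups, with cKO 1 the lowest at each.

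Regions away from promoters were also called at the other hem genes. The region 25.1 kb upstream of Gdf7, inside an intron of the neighbour Hs1bp3, had 53 fragments in Ctrl 1, 30 in cKO 1 and 49 in cKO 2. The intergenic region 35.8 kb upstream of Msx1 had 41, 32 and 49 fragments in the same lists. A second intergenic region, 33.4 kb upstream of Msx1, had 40, 22 and 19 fragments, so that its depth was 24.7 times the mean in Ctrl 1, 10.6 in cKO 1 and 10.5 in cKO 2. No library of Ctrl other than Ctrl 1 held these regions, so the spread within Ctrl is not known for them.

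Among the remaining genes, the intergenic region 30.8 kb downstream of the Cxcr4 start site, printed above, had 74 fragments in Ctrl 1, 33 in cKO 1 and 73 in cKO 2, or 45.6, 15.9 and 40.4 times the mean depth. An intronic region of Trp73, 30.7 kb into the gene, had 27, 15 and 33 fragments in the same order. The Lhx1 region 24.0 kb upstream, with its 2 TAATTA matches, had 18 fragments in Ctrl 1 and 27 in cKO 2. The Calb2 region 9.28 kb upstream had 21 and 26 fragments in those 2 lists. Lhx5 had a single region away from promoters, 21.4 kb upstream with 9 fragments in Ctrl 1, and Cxcl12 had none. The deepest peaks at the Calb2, Lhx1 and Trp73 loci lay at promoters of the neighbours Cmtr2, Aatf and Tprgl.

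**Figure D5:**
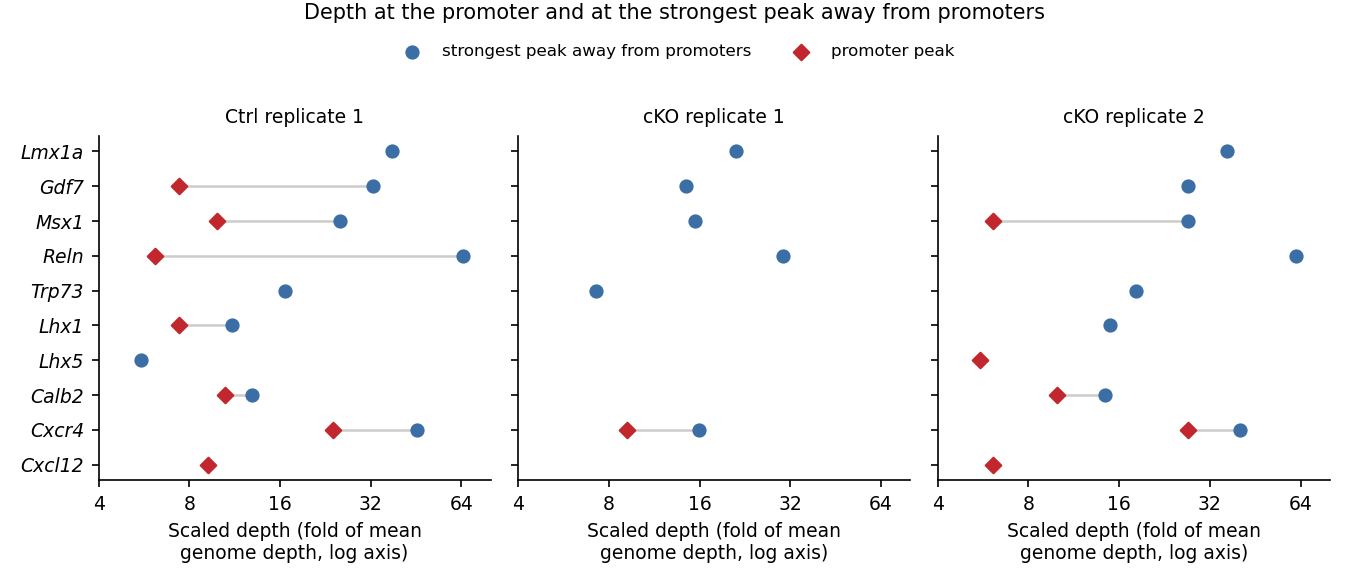
Scaled depth (multiples of the mean genome depth, log axis) of the promoter peak (red) and of the strongest peak away from promoters within 50 kb of the gene (blue) for each gene, in the 3 lists that held such peaks; a grey line joins the pair where both were called. The blue point lies to the right of the red one in each joined pair, for example at 64.7 against 6.16 for Reln in Ctrl 1.

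The strongest peak away from promoters outranked the gene's own promoter peak, or stood without one, at 9 of 10 members in Ctrl 1, 6 of 6 with either kind of peak in cKO 1 and 8 of 10 in cKO 2, and Ctrl 2 had neither kind. This count was chosen after the peaks had been seen. The same share over protein-coding genes with either kind of peak was 45.6% in Ctrl 1, 72.6% in Ctrl 2, 44.5% in cKO 1 and 47.8% in cKO 2. Within 20 kb of the gene the member counts were 5 of 9, 3 of 4 and 4 of 8 in the 3 lists that had any, against 34.1%, 32.1% and 36.0% (59.3% in Ctrl 2). In the gene body alone they were 3 of 9, 3 of 4 and 3 of 8, against 19.7%, 19.4% and 21.6% (41.8% in Ctrl 2). The count therefore moved with the width of the locus, and the gene bodies searched ran from 4.04 kb at Gdf7 to 460 kb at Reln.

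At the 20 shared regions the scaled depth was lowest in cKO 1 at 19 of 20, as it was at 97.7% of the 15172 such regions in the genome. It was higher in cKO 2 than in Ctrl 1 at 7 of 20, against 37.0% in the genome. Both cKO libraries lay below Ctrl 1 at 13 of 20 regions, against 62.9% in the genome, and above it at 0 of 20, against 1.23%. Nothing about the members is read from these counts.

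The windows of 300 bp around summits away from promoters were compared with all such windows of the same list. TAATTA was present in 9 of 34 member windows (26.5%) in Ctrl 1, 3 of 15 (20%) in cKO 1 and 10 of 37 (27.0%) in cKO 2, against 16.6%, 13.0% and 15.2% of all windows away from promoters. CAGCTG was present in 44.1%, 33.3% and 43.2% of member windows, against 25.2%, 23.7% and 25.6%. CAGATG was present in 38.2%, 53.3% and 35.1%, against 34.2%, 32.8% and 35.9%. CTTTGA was present in 17.6%, 20% and 13.5%, against 18.6%, 15.4% and 18.1%. GGGCGG was present in 8.82%, 20% and 5.41%, against 7.89%, 8.73% and 8.12%. Many of these windows are the same regions in different lists, and no test was run.

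Genes of the same pathways were counted in the same way at their promoters. Of 12 reelin pathway genes, 10 had a promoter peak in Ctrl 1, 1 in Ctrl 2, 9 in cKO 1 and 12 in cKO 2. Each count in this paragraph and those after it stands beside the shares of 58.0%, 8.27%, 40.3% and 55.9% of all protein-coding genes in the same order, and none was tested. Among protein-coding genes with a CGI at a promoter the shares were higher, at 87.1%, 13.5%, 63.3% and 84.8%. How many genes of each list have such a CGI is not given, so a count above the first shares is not read as a result. Fyn, a kinase that phosphorylates DAB1 after reelin binding, had a peak in all 4 lists, at percentiles of 94.3, 93.3, 93.0 and 92.2. Vldlr and Lrp8, the reelin receptors, and the adaptor Dab1 had one in each list other than Ctrl 2, at percentiles of 49.3 to 64.2. Rap1a had one in 2 lists, and Itga3 and Rapgef1 in cKO 2 alone.

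Of 18 other genes of the hem or its antagonists, 11 had a promoter peak in Ctrl 1, 0 in Ctrl 2, 6 in cKO 1 and 9 in cKO 2. Emx2 and Lhx2, transcription factors of the cortical primordium, stood between percentiles of 69.5 and 86.4 in the 3 lists that held them. Bmp4, Rspo1 and Wnt2b, which encode secreted signals of the hem, and Lmx1b, a relative of Lmx1a, lacked a promoter peak in every list, and the same held for Wnt3a and Wnt8b. Other secreted signals had promoter peaks, among them Rspo2 at percentiles of 43.7, 60.2 and 48.0 in Ctrl 1, cKO 1 and cKO 2, Bmp7 at 47.9 and 52.5 in Ctrl 1 and cKO 2, and Wnt5a, Bmp6 and Rspo3 at 42.8, 46.2 and 47.5 in Ctrl 1 alone. Of 13 further Cajal-Retzius markers, 9, 0, 4 and 9 had a promoter peak in the order Ctrl 1, Ctrl 2, cKO 1, cKO 2. Ebf2 and Nhlh2 had promoter peaks in Ctrl 1 and cKO 2, at percentiles of 66.1 and 51.6 for Ebf2 and of 70.7 and 65.2 for Nhlh2, and Barhl2, Cacna2d2 and Zic4 had none called in any list. Of 6 genes of the CXCL12 axis, 4, 1, 2 and 3 had a promoter peak in that order, with Arrb2, which encodes an arrestin, in all 4 lists and the second CXCL12 receptor Ackr3 and the kinase gene Grk2 in none.

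Markers of the tissue and of other cells were counted beside these genes, and some genes, among them Emx2, Lhx2, Tbr1 and Barhl2, stand both here and in a list above. Of 13 markers of hippocampus and dorsal telencephalon, 12 had a promoter peak in Ctrl 1, 0 in Ctrl 2, 8 in cKO 1 and 13 in cKO 2. In Ctrl 2 only 8.27% of all protein-coding genes had a promoter peak, and nothing about the tissue of Ctrl 2 is read from the count of 0. Of 9 meningeal markers, 3, 0, 1 and 2 had one in the same order, with a mean percentile of 0 to 18.0 in Ctrl and of 6.93 to 11.5 in cKO, and Aldh1a2, Col3a1, Dcn, Foxd1, Lum and Slc6a13 had none in any list. Of 9 interneuron markers the counts were 5, 0, 1 and 2, with a mean percentile of 0 to 26.0 in Ctrl and of 6.98 to 10.5 in cKO, and Gad2, Lhx6, Nkx2-1 and Sst had none. Choroid plexus markers gave 2, 0, 2 and 2 of 6, vessel and microglia markers 2, 0, 1 and 1 of 8, markers of the thalamus and thalamic eminence 2, 0, 1 and 2 of 4, and 4 genes of other organs 0 in all lists. Meningeal, vessel or interneuron cells also express Cxcl12, Cxcr4 or Calb2, and they need not be the only other cells of the tissue that do. The part of any such cells in the values of these genes was not tested.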

How the data were processed

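After trimming (Cutadapt) and alignment to mm10 (Bowtie2), the authors took out duplicates with Picard, mitochondrial reads with SAMtools and reads in ENCODE blacklist regions, shifted alignments for the Tn5 offset and called peaks with MACS2 2.2.7.1 in each library alone, without a control library and without pooling. Each deposited list gives, per peak, a display score (−log10 q times a constant, cut to a whole number), the ratio of depth to background at the summit (fold, with 1 added to both), the −log10 p-value and −log10 q-value, and the summit offset in bp. Values of separately called lists share no scale, so ranks by −log10 p were compared, and scaled depth. Removal of duplicates and blacklist regions could lower depth, and this was not measured.

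Fragment depth at each summit was recovered from the deposited fold and −log10 p-value, which a whole number of fragments fitted within 0.01 for 99.4% of peaks or more in each list. Scaled depth is that number over the mean genome depth. These depths carry at least counting error and differences between libraries, and no error is given for them. Start sites and genes came from GENCODE M21, and positions are mm10, 1-based. CGIs were computed from the genome with soft-masked bases not counted as C or G (over 200 bp, GC of at least 50%, observed over expected CpG of at least 0.6), which gave 16306. Peaks with 50% or more soft-masked bases counted as repeat-masked. Lists of regions were merged at 1 bp of overlap.

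Groups were taken from the titles. Promoter percentiles were compared by an exact permutation test with Benjamini-Hochberg adjustment over all genes with a promoter peak, and counts over the members were not tested. The members and gene lists were chosen with earlier results of these data known. All 10 members are named. Reelin, hem, Cajal-Retzius and CXCL12 context genes with a promoter peak in all 4 lists or in none are named, at most 4 of each. Wnt3a, Wnt8b, Wnt5a, Bmp6, Bmp7, Rspo2, Rspo3, Vldlr, Lrp8, Dab1, Rap1a, Itga3, Rapgef1, Emx2, Lhx2, Ebf2 and Nhlh2 and the marker genes without a peak were named after their values were seen. For each member the region away from promoters found in most lists was named, ties going to the better mean rank, and further regions were named after their values were seen. Python 3.11.15, numpy 2.4.6, pandas 2.3.3, scipy 1.17.1 and pysam 0.24.0 were used, and the scripts were tested on simulated data. Alternatives changed the promoter width, the overlap rule, the q-value threshold, list length, repeat filter, ranking measure, locus width, motif window and libraries.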

Additional observations from a re-analysis of the deposited data

How the results depend on the processing

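The exact permutation test cannot go below 0.333 with 2 libraries per group, so the alternatives show only how values moved. Depth limits them further, since a peak needed at least 7 to 12 fragments to be called. The count of members higher in both cKO libraries minus those lower was 1, and it was 0 with lists of equal size (7037 peaks) and 0 by scaled depth, and it ran from −4 to 3 when a library was left out. With lists of equal size no member had a promoter peak. The promoter percentile difference of Calb2 changed sign, from 1.89 to −6.11 when genes without a peak took a middle rank and to −0.258 by scaled depth. With a library left out, the difference of Calb2 ran from −24.8 to 28.6, that of Msx1 from −28.0 to 23.1 and that of Cxcl12 from −25.7 to 23.1. Other members' differences did not change sign. Those of Gdf7, Reln and Lhx1 became 0 without Ctrl 1, and that of Lhx5 became 0 without cKO 2. At −log10 q of at least 5, those of Gdf7, Reln and Lhx5 became 0. At that threshold the Msx1 difference went from −2.45 to −25.6 and the Cxcl12 difference from −1.30 to −24.4. The difference in members with a promoter peak ran from −4 to 3, that in mean percentile from −18.1 to 16.6 and that in locus peaks per 10000 from −0.363 to 9.21 when a library was left out. At the other settings the locus difference ran from 1.69 to 4.34. The count of members whose strongest peak away from promoters outranked their own promoter peak, or stood without one, fell from 9 of 10, 6 of 6 and 8 of 10 in Ctrl 1, cKO 1 and cKO 2 to 3 of 9, 3 of 4 and 3 of 8 in the gene body alone, a setting chosen after seeing the data. With the replicate number as a block (replicate block), the Cxcr4 difference stayed at 38.8 with an exact p of 0.5, the smallest that 2 pairs allow, and 0 genes passed with or without it. The deviations of libraries with the same number correlated at 0.053 across genes. With 2 libraries per group, this value cannot show whether the numbers pair the libraries.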
